A study of Phalaenopsis amabilis with 15 samples.

Results

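WOX4 (LOC110026126) and a KNOTTED1-like homeobox gene, here called KNOX (LOC110024018), are 2 of the 21144 genes in the deposited table of young leaves of the moth orchid Phalaenopsis amabilis. Both were chosen by their levels in the 5 groups of this study, with results of these data already known. Their levels and differences are therefore given as a description, without a p-value. WOX4 lies on scaffold NW_018164794.1 from 747152 to 748039 on the minus strand, and KNOX on scaffold NW_018164682.1 from 2307856 to 2316882, also on the minus strand. The positions are those the table gives for loci of the related species P. equestris, on which reads of plants labelled P. amabilis were counted, and the genome build is not given in the sources used here.

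RNA was sequenced from 15 libraries, 3 for each group, and each library pooled 3 plants. The Control was sampled at day 0, when plants received 12 h of light per day and temperatures were 28 °C (day) and 25 °C (night). The treated plants were kept cooler, at 25 °C (day) and 18 °C (night), with light for 16 h (LD) or 8 h (SD), and were sampled on day 20 or day 40 (LD_20d, SD_20d, LD_40d and SD_40d). SD against LD on the same day changes the hours of light, at the same day and night temperatures. If the day temperature followed the light, the warm hours differed too. The hour of harvest is not given in the sources used here. A treated group differs from the Control in light, temperature and day together, which cannot be told apart, and the 4 comparisons with the Control share its 3 libraries. Nothing in the labels says how separately the pools were grown, so the spread between libraries may be partly technical.

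WUSCHEL-related homeobox (WOX) and KNOTTED1-like (KNOX) proteins are plant transcription factors. In Arabidopsis, WOX4 acts in the cambium, the dividing layer of the vascular bundle, where it keeps stem cells dividing downstream of the peptide receptor TDR. Class I KNOX proteins keep cells of the shoot meristem undifferentiated and are switched off in simple leaves, whereas class II KNOX genes are widely transcribed in differentiating organs, and both kinds bind BELL homeodomain partners. The KNOX gene described here matches apple KNAP3 in Swiss-Prot and is named knotted-1-like 13 in RefSeq, and KNAP3 belongs to class II. By these names it is not a class I meristem gene, and only WOX4 is known for a stem cell tissue.

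Library totals ran from 11246777 to 14637388 counts. Chlorophyll a-b binding and Rubisco small subunit genes, the leaf markers, all had counts (15 of 15). Their summed level was 49500 to 63700 CPM in the Control and lower in every treated library, at 9250 to 14800 CPM in LD_20d, 17400 to 21300 in SD_20d, 12200 to 15800 in LD_40d and 21200 to 24600 in SD_40d. These markers were thus lower in the same comparisons with the Control in which WOX4 or KNOX was higher, and their part in those differences was not tested. CPM are counts relative to the library total, scaled between libraries by the trimmed mean of M-values (TMM). Marker genes of the shoot meristem summed to 46.7 to 69.9 CPM over 10 genes, and those of floral organs to 12 to 24.4 CPM over 17 genes. The WUSCHEL locus itself (LOC110036538) had 1 count in all 15 libraries. Replicate 1 of SD_40d stood apart from the other 2 SD_40d libraries in KNOX, in the sums of dividing tissue and vascular markers, and in the gene counts given below. Values without it are given beside the results it moved most.

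WOX4 was a rare transcript that was high in both 20-day groups and low in the other 3. The Control libraries held 2, 4 and 1 counts, equal to 0.163, 0.329 and 0.0787 CPM. The LD_20d libraries held 19, 46 and 24 counts (1.32, 3.14 and 1.76 CPM). The SD_20d libraries held 34, 37 and 42 counts (2.45, 3.02 and 2.99 CPM). Every 20-day library lay above every Control library.

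At 40 days WOX4 was back near the Control. The LD_40d libraries held 5, 0 and 3 counts (0.381, 0 and 0.205 CPM), and the SD_40d libraries held 7, 4 and 1 (0.51, 0.366 and 0.0737 CPM). These ranges overlap each other and the Control. Summed over a group, the Control had 7 counts (exact Poisson 95% interval 2.81 to 14.4), LD_20d 89 (71.5 to 110), SD_20d 113 (93.1 to 136), LD_40d 8 (3.45 to 15.8) and SD_40d 12 (6.2 to 21). The intervals cover counting error only, since copies made by PCR are not independent molecules.

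**Figure D1:**
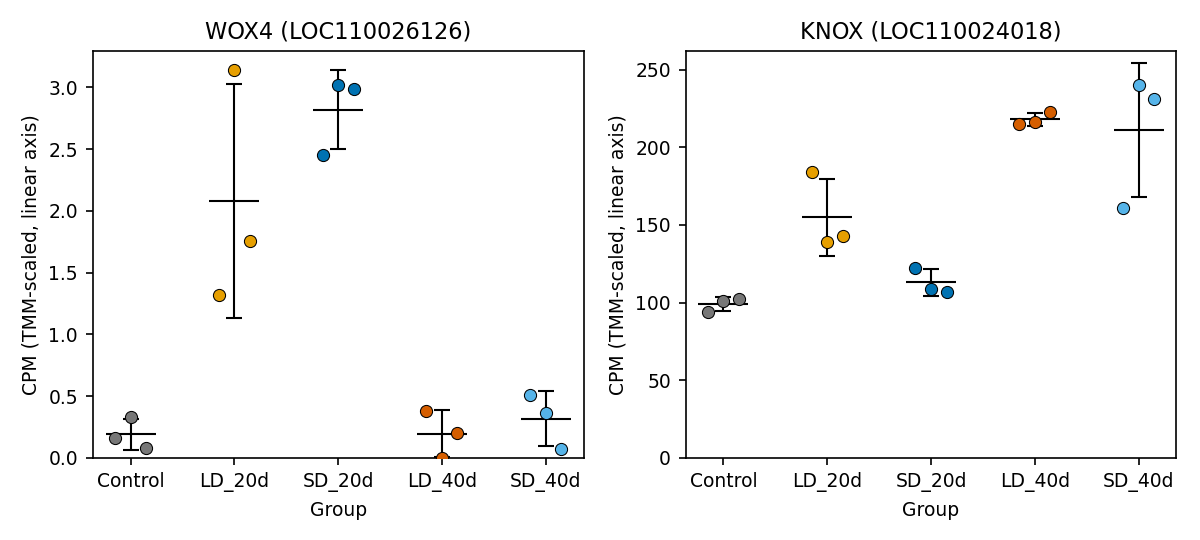
Level of WOX4 (left) and KNOX (right) in each library, as CPM on a linear axis, by group. Points are libraries, and the bars give the mean ± SD of 3 libraries. WOX4 lies at 1.32 CPM or more in all 20-day libraries and at 0.51 CPM or less in the others, whereas KNOX is highest at 40 days.

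Mean WOX4 in the Control was 0.19 ± 0.127 CPM (SD, n = 3). On day 20 it was 2.08 ± 0.948 CPM under LD and 2.82 ± 0.319 under SD, and on day 40 it was 0.195 ± 0.19 under LD and 0.317 ± 0.222 under SD. On the log2 scale of the fit over all genes, LD_20d lay 3.39 ± 0.71 (SE) above the Control and SD_20d 3.83 ± 0.71 above it. The ratios of the mean CPM were 10.9 and 14.8. Without Control replicate 2, the library with the most WOX4 of the 3, the log2 differences were 4 and 4.42. From 20 to 40 days the mean CPM of WOX4 changed by -90.6% under LD and -88.8% under SD (log2 differences -3.31 ± 0.70 and -3.12 ± 0.66). The LD difference ran from -4.11 (without LD_40d replicate 1) to -2.8 (without LD_40d replicate 2), and the SD difference from -3.69 (without SD_40d replicate 1) to -2.65 (without SD_40d replicate 3). The 20-day and 40-day libraries did not overlap in either photoperiod.

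Between photoperiods WOX4 did not separate. SD_20d minus LD_20d was 0.44 ± 0.55 on the log2 scale, and SD_40d minus LD_40d was 0.63 ± 0.82, with overlapping libraries on both days. Without 1 library the day-20 difference ran from 0.2 (without LD_20d replicate 1) to 0.87 (without LD_20d replicate 2). The day-40 difference ran from 0.05 (without SD_40d replicate 1) to 1.42 (without LD_40d replicate 1). At 40 days LD minus Control was 0.08 ± 0.88 and SD minus Control 0.71 ± 0.84. Without 1 library the LD value ran from -0.71 (without LD_40d replicate 1) to 0.68 (without Control replicate 2), and the SD value from 0.1 (without SD_40d replicate 1) to 1.31 (without Control replicate 2). In the order of mean levels, SD_20d and LD_20d stand first and do not differ beyond their spread. SD_40d, LD_40d and the Control follow, and their counts are too few to resolve differences among them.

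WOX4 passed the filter on low counts through its 20-day libraries, so it could be in the fit only by being high there. Its mean level per length was low, above that of 10.9% of the 16700 genes tested on the FPKM scale (fragments scaled to gene length and library total). Its own variation was wide. The root mean square of its log2 CPM around its mean over the 15 libraries was 1.48, more than in 96.6% of the genes tested.

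KNOX was an abundant transcript with another time course. The Control libraries held 1156, 1228 and 1300 counts, or 94.2 to 102 CPM. The LD_20d libraries held 184, 139 and 143 CPM and the SD_20d libraries 122, 109 and 107 CPM. All SD_20d libraries were therefore above the Control and below LD_20d, with no overlap. The difference of SD_20d from the Control was small for its error, 0.18 ± 0.15 (SE) on the log2 scale.

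The KNOX level was highest on day 40. The LD_40d libraries held 215, 216 and 223 CPM, within a narrow range. The SD_40d libraries held 161, 240 and 231 CPM, and replicate 1 was the low one. LD_40d lay inside the range of SD_40d, so the photoperiods overlapped on day 40, and every 40-day library lay above the 20-day libraries of its own photoperiod.

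Mean KNOX in the Control was 99.2 ± 4.33 CPM (SD, n = 3). On day 20 it was 155 ± 24.9 CPM under LD and 113 ± 8.55 under SD, and on day 40 it was 218 ± 4.26 under LD and 211 ± 43.2 under SD. Relative to the Control, the log2 differences on day 20 were 0.65 ± 0.15 (SE) for LD and 0.18 ± 0.15 for SD, and on day 40 they were 1.14 ± 0.15 for LD and 1.09 ± 0.15 for SD. From 20 to 40 days KNOX was higher by 0.49 ± 0.14 under LD and by 0.90 ± 0.15 under SD, or by 40.5% and 87.1% of the mean CPM. Without replicate 1 of SD_40d, the mean of that group was 235 CPM, and its log2 difference was 1.22 from the Control and 1.07 from SD_20d. In the order of mean levels, LD_40d and SD_40d do not differ beyond their spread, LD_20d follows, then SD_20d, and the Control is lowest. How close the Control lies to SD_20d depends on the scaling. From FPKM and gene length, without TMM, the means were 93.3 CPM in the Control and 122 in SD_20d. SD_40d was not compared with LD_20d in the fit, and its replicate 1, at 161 CPM, lay inside the LD_20d range of 139 to 184 CPM.

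KNOX libraries of the 2 photoperiods did not overlap on day 20 and overlapped on day 40. SD_20d minus LD_20d was -0.46 ± 0.15 on the log2 scale, a mean CPM that differed by -27.4%, and SD_40d minus LD_40d was -0.05 ± 0.14. Without replicate 1 of SD_40d the day-40 difference was 0.11. The photoperiod difference on day 40 minus that on day 20 was 0.41 ± 0.20 for KNOX and 0.19 ± 0.91 for WOX4. Without replicate 1 of SD_40d it was 0.59 for KNOX and -0.37 for WOX4, and without replicate 1 of LD_40d it was 0.98 for WOX4. In the test of that difference over all genes edgeR called 0 of 16700 (0%), with 1832 at an unadjusted p under 0.05, and DESeq2 called 33.

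**Figure D2:**
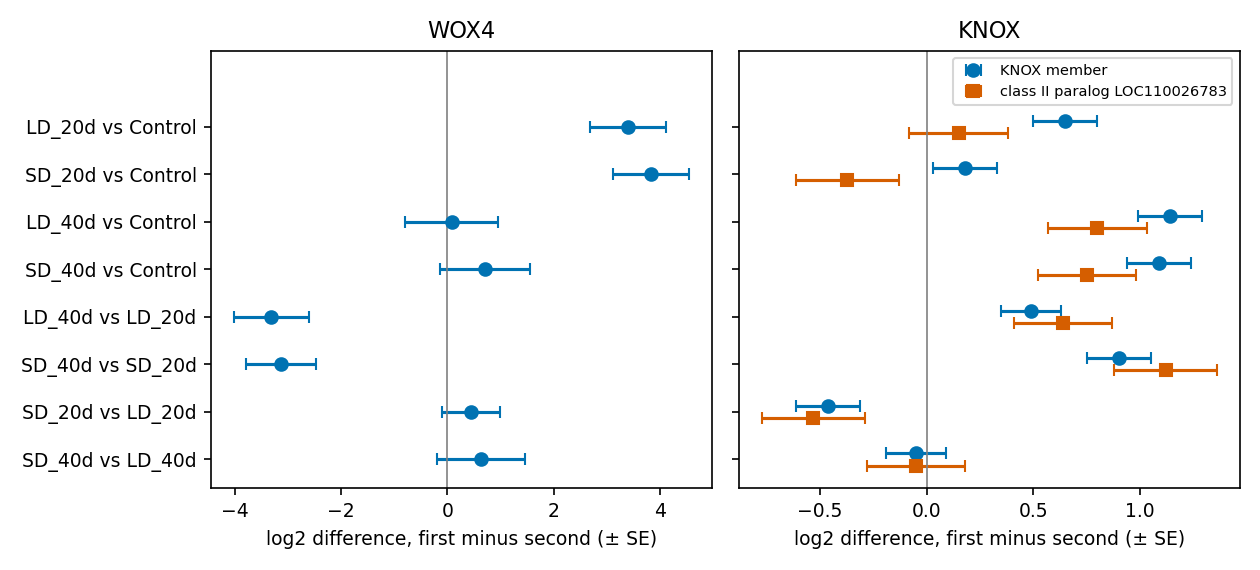
Log2 differences ± SE of WOX4 (left) and KNOX (right, circles) in the 8 comparisons, first group minus second, from one fit to 15 libraries. Squares give LOC110026783, the KNOX locus with the same protein names. WOX4 is about 3 log2 units above the Control and above day 40 in the 20-day groups, and KNOX exceeds 1 above the Control in both 40-day groups.

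Per length, KNOX exceeded WOX4 in every group. Mean FPKM of KNOX was lowest in the Control, at 60.3, and highest in LD_40d, at 139, with 78.7 in SD_20d and 129 in SD_40d between them. The WOX4 values for those 4 groups were 0.274, 0.293, 4.71 and 0.473 FPKM. The KNOX mean was above that of 93.8% of the genes tested. Its variation over the libraries was 0.48 (root mean square, log2), more than in 64.7% of genes.

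The background for these differences was set by all 16700 genes tested with edgeR's quasi-likelihood F test, where a call is a Benjamini-Hochberg adjusted p under 0.05. SD_20d against LD_20d called 0.862% of genes and SD_40d against LD_40d 0.461%. LD_20d against the Control called 24%, SD_20d against the Control 35.1%, LD_40d against the Control 27.5% and SD_40d against the Control 38.3%. LD_40d against LD_20d called 5.16% and SD_40d against SD_20d 40.7%. Since these contrasts chose both genes, nothing is read from where WOX4 and KNOX stand in them. The share of all genes whose libraries do not overlap is not given, so non-overlap of WOX4 and KNOX libraries is a description only. Leaving out replicate 1 of SD_40d raised the calls of SD_40d against LD_40d from 77 to 2025 genes, and those of LD_40d against LD_20d from 861 to 2399. It raised those of SD_40d from 6399 to 7758 against the Control and from 6801 to 8117 against SD_20d.

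The other KNOX loci differed widely in level. The table names 9 KNOX loci. The 5 loci with class I names (LOC110028405, LOC110031974, LOC110033155, LOC110036521 and LOC110039374) held 13 counts over all 15 libraries, and 2 of them held none. This grouping by class was made from the names after values had been seen. LOC110029167 matches KNAP3 in Swiss-Prot but is named an ethylene-responsive factor in RefSeq, and it is left out of either class.

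Among the class II names, LOC110026783 carries the same protein names as KNOX, and LOC110030742 matches KNAT7, a regulator of secondary wall formation in Arabidopsis. KNOX made up 65.8% to 80.3% of the FPKM of these 3 loci and was 3.11 to 6.96 times the paralog in each library. Reads of near-identical copies may have been split between KNOX and LOC110026783, so the level of each is uncertain to that extent.

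**Figure D3:**
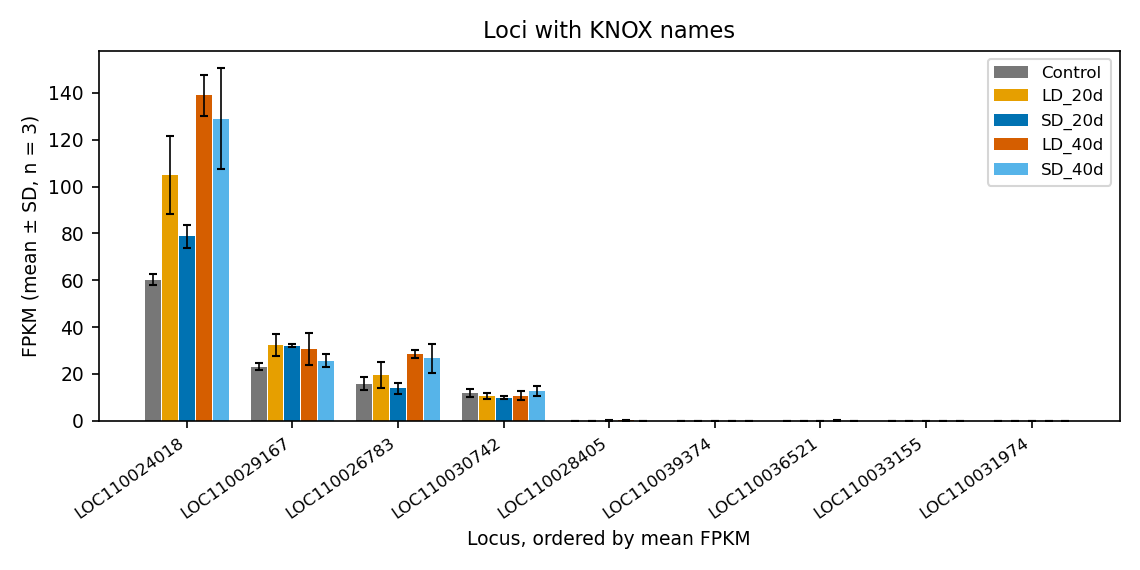
Mean FPKM ± SD (n = 3) in the 5 groups for the 9 loci with KNOX names, ordered by mean FPKM. The KNOX gene LOC110024018 runs from 60.3 FPKM in the Control to 139 in LD_40d, and the 5 loci with class I names lie near 0.

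The paralog LOC110026783 was not used to choose the gene and can be tested, within the limit of shared reads. Its libraries held 34.6, 29.4 and 24.5 CPM in the Control, 57.1, 48.6 and 48.1 in LD_40d, and 36.2, 62.3 and 50.7 in SD_40d. It rose by 0.80 ± 0.23 in LD_40d against the Control (edgeR adjusted p = 0.0225) and by 0.75 ± 0.23 in SD_40d (adjusted p = 0.0221). These calls were lost without Control replicate 2 or 3, the first also without LD_40d replicate 1 and the second without SD_40d replicate 2 or 3. From SD_20d to SD_40d it rose by 1.12 ± 0.24 (adjusted p = 0.00285), and that call held in all 22 alternatives. For SD_20d against LD_20d its difference was -0.53 ± 0.24 (adjusted p = 0.277), and for LD_40d against LD_20d 0.64 ± 0.23 (adjusted p = 0.101).

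KNAT7-like LOC110030742 fell by 0.48 ± 0.17 in SD_20d against the Control (edgeR adjusted p = 0.0465) and rose by 0.56 ± 0.17 from SD_20d to SD_40d (adjusted p = 0.0197). The first call was lost in 10 of 22 alternatives, among them limma-voom and leaving out any SD_20d library, and the second without SD_20d replicate 2 or 3 or SD_40d replicate 1 or 2.

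The WOX family was mostly silent in these leaves. Of 12 WOX loci, 4 passed the filter on low counts, 6 others had counts and 2 had none. The 8 loci that did not pass held 57 counts in all, of which 34 were in SD_20d. LOC110036348, a match to Arabidopsis WOX9, had 10 counts, 5 and 4 of them in SD_20d replicates 1 and 2 and 1 in LD_20d replicate 2. LOC110034479, a match to rice WOX12, had 7 and 2 in SD_20d replicates 3 and 2 and 1 in LD_20d replicate 2. These 2 loci were singled out after their counts were seen, and counts this low give no test.

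The 3 other tested WOX loci all match rice WOX8. LOC110022094 was the most abundant, with a mean of 40.3 FPKM over the groups, against 1.82 for WOX4. None of these 3 WOX8-like loci was called in the 20-day groups against the Control, where 24% (LD) and 35.1% (SD) of all genes were. With 3 loci nothing is read from that. LOC110033171 fell by 1.09 ± 0.39 in SD_40d against the Control (edgeR adjusted p = 0.0385), a call lost under the replicate block and without any 1 of 6 single libraries.

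BELL homeodomain proteins are the partners that KNOX proteins bind. Of 15 BELL loci 14 were tested, and 7 rose and 2 fell in SD_40d against the Control (64.3%, against 38.3% of all genes). The median log2 difference was 0.27, against -0.05 over all genes. In LD_40d 5 rose and 3 fell (57.1%, against 27.5%), and from SD_20d to SD_40d 7 rose and 2 fell (64.3%, against 40.7%). At 20 days the shares were near those of all genes: 2 rose and 1 fell under LD (21.4%, against 24%), and 3 rose and 2 fell under SD (35.7%, against 35.1%). Between photoperiods none of the 14 was called on either day (0%, against 0.862% of all genes on day 20 and 0.461% on day 40). That is near the share of all genes, and nothing is read from it.

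BLH2-like LOC110031944 ran from 207 CPM in the Control to 386 in LD_40d and 499 in SD_40d, a rise of 0.90 ± 0.19 (edgeR adjusted p = 0.0036) and of 1.27 ± 0.19 (adjusted p = 0.000304). BLH9-like LOC110031391, related to the Arabidopsis meristem factor PENNYWISE, rose from 42.4 to 124 CPM in SD_40d, by 1.55 ± 0.26 (adjusted p = 0.000621). BLH3-like LOC110028790 rose by 1.41 ± 0.26 in SD_40d (adjusted p = 0.00117). Their means were above the Control on day 40 in both photoperiods, as was that of KNOX.

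Other BELL genes took other courses. BLH1-like LOC110019499 rose by 2.42 ± 0.39 from SD_20d to SD_40d (edgeR adjusted p = 0.000871), from 244 to 1300 CPM. ATH1-like LOC110027812, which in Arabidopsis acts in the shoot meristem and in floral repression, fell by 2.62 ± 0.41 over the same interval (adjusted p = 0.00081), from 65 to 10.6 CPM. BEL1-like LOC110039333 was 193 CPM in the Control and fell by 1.93 ± 0.35 in LD_20d (adjusted p = 0.00156) and by 2.22 ± 0.35 in SD_20d (adjusted p = 0.000462).

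**Figure D4:**
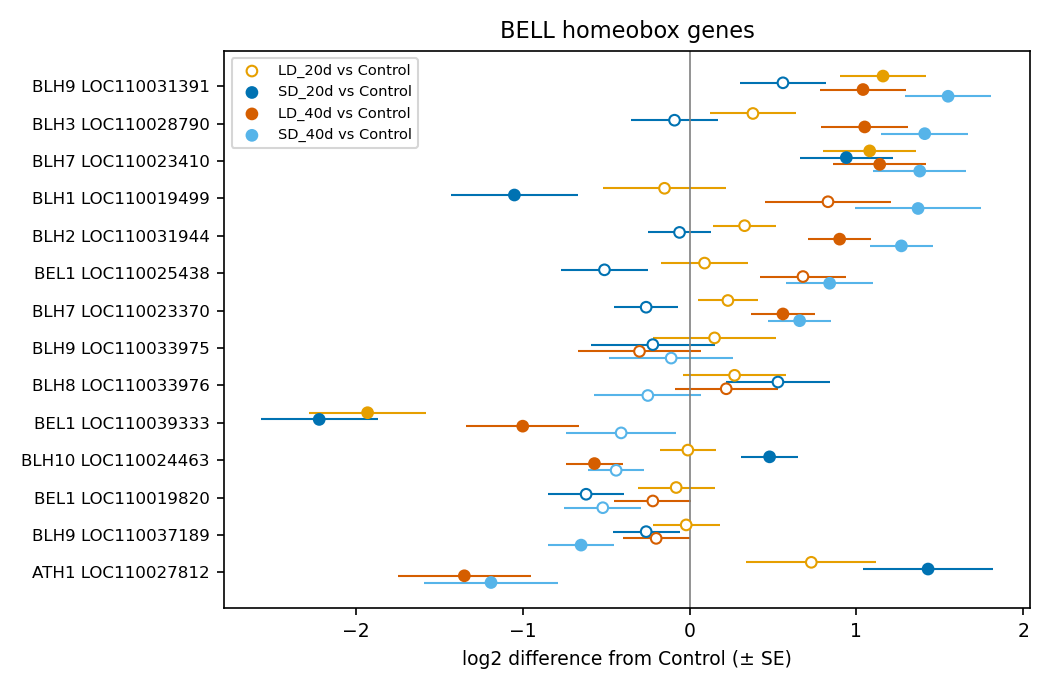
Log2 differences from the Control ± SE of the 14 tested BELL homeobox genes in the 4 treated groups, labelled by their Swiss-Prot match and locus. Filled points have an edgeR adjusted p under 0.05. On day 40 in SD, 7 genes are filled on the right and 2 on the left.

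Genes that shape leaves and hold class I KNOX genes off in other plants were followed in a list of repressors and leaf polarity factors, 42 loci of which 21 were tested. From SD_20d to SD_40d 1 rose and 14 fell (71.4%, against 40.7% of all genes), with a median of -1.72 against 0 over all genes. In SD_20d against the Control 8 rose and none fell (38.1%, against 35.1%), and in LD_20d 4 rose and 1 fell (23.8%, against 24%), both near the share of all genes. AS2-like LOC110036062, named for the Arabidopsis KNOX repressor AS2, rose by 1.45 ± 0.29 in SD_20d (edgeR adjusted p = 0.00196) and fell by 1.94 ± 0.29 from SD_20d to SD_40d (adjusted p = 0.000734). YABBY4-like LOC110034047 was 2.4 CPM in the Control and 56 in SD_20d, a rise of 4.55 ± 0.98 (adjusted p = 0.00336).

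Rough sheath 2, the maize counterpart of the AS2 partner AS1, is matched by LOC110020574, which fell by 1.54 ± 0.40 in SD_40d against the Control (edgeR adjusted p = 0.0089), from 123 to 42.4 CPM. YABBY2-like LOC110020496 fell by 1.56 ± 0.24 in LD_40d (adjusted p = 0.000422) and by 1.88 ± 0.24 in SD_40d (adjusted p = 0.000108). KANADI4-like LOC110036870, a polarity factor of the lower leaf side, fell by 2.83 ± 0.48 from SD_20d to SD_40d (adjusted p = 0.000991).

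For WOX4, loci were listed by words in the names of cambium regulators of other plants, 64 loci of which 32 were tested. Whether they have that role in leaves of this orchid was not tested. In LD_20d against the Control 7 rose and 5 fell (37.5%, against 24% of all genes), and in SD_20d 8 rose and 6 fell (43.8%, against 35.1%). From SD_20d to SD_40d 5 rose and 9 fell (43.8%, against 40.7%).

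TDR, the receptor upstream of WOX4 in Arabidopsis, is matched by LOC110038789, which was singled out after its values were seen. Its adjusted p-values do not allow for that choice, so its differences are a description and nothing is read from those p-values. The Control libraries held 1.3, 4.28 and 0.472 CPM of it. Those of day 20 held 7.95, 17.5 and 10.9 under LD, and 9.96, 15 and 15.2 under SD. On day 40 they held 5.56, 0.602 and 4.71 CPM under LD and 1.82, 1.1 and 1.18 under SD. All 20-day libraries lay above the others, which is a description only, since the share of all genes that do so is not given. It rose by 2.73 ± 0.70 in SD_20d against the Control (edgeR adjusted p = 0.00862) and fell by 3.27 ± 0.72 from SD_20d to SD_40d (adjusted p = 0.00367).

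Under LD the TDR-like locus LOC110038789 rose by 2.59 ± 0.69 against the Control on day 20 (edgeR adjusted p = 0.016), a call lost without Control replicate 1 or 3 or LD_20d replicate 2. From LD_20d to LD_40d its difference was -1.73 ± 0.66 (adjusted p = 0.113). ERECTA-like LOC110029993, a receptor kinase of organ growth and vascular development, rose by 2.43 ± 0.36 in SD_20d (adjusted p = 0.000272) and fell by 3.30 ± 0.37 from SD_20d to SD_40d (adjusted p = 0.00065), from 706 to 71.5 CPM. The other locus with this match, LOC110026011, was not called on day 20 against the Control. Its differences were -0.43 ± 0.41 in LD (edgeR adjusted p = 0.479) and 0.15 ± 0.41 in SD (adjusted p = 0.808). Other loci of the list lay below the Control. BZR1-like LOC110035112 (-1.09 ± 0.14) and LBD39-like LOC110033830 (-2.59 ± 0.37) did so in LD_20d (adjusted p = 0.000187 and 0.000297), and LBD37-like LOC110027237 (-1.29 ± 0.19) in SD_20d (adjusted p = 0.000306).

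HD-ZIP homeobox genes include regulators of vascular and epidermal identity, and 32 of 37 were tested. Against the Control, 10 rose and 5 fell in LD_20d (46.9%, against 24% of all genes), and 15 rose and 4 fell in SD_20d (59.4%, against 35.1%). From SD_20d to SD_40d 6 rose and 13 fell (59.4%, against 40.7%). ROC8-like LOC110025832, of the epidermal class IV, rose by 2.42 ± 0.36 in SD_20d (edgeR adjusted p = 0.000276) and fell by 2.47 ± 0.36 to SD_40d (adjusted p = 0.000733). ATHB-20-like LOC110019227 rose by 3.01 ± 0.29 in LD_40d (adjusted p = 1.35e-05) and by 2.79 ± 0.29 in SD_40d (adjusted p = 2.41e-05).

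Class I KNOX proteins act on cytokinin and gibberellin in other plants, and 20 of 37 genes of these pathways were tested. In SD_40d against the Control 2 rose and 9 fell (55%, against 38.3% of all genes), with a median of -1.56 against -0.05 over all genes. LOG1-like LOC110036346, which makes active cytokinin, was 53 CPM in the Control and 8.27 to 9.55 CPM in the treated groups. It fell by 2.47 ± 0.25 in LD_40d (edgeR adjusted p = 1.99e-05). LOG7-like LOC110029482, named for the same enzyme, also fell, with -2.24 ± 0.28 in SD_40d (adjusted p = 8.54e-05). LOGL1-like LOC110022302, again of that name, went the other way. It rose from 40.2 to 65.3 CPM in LD_40d, by 0.70 ± 0.10 (adjusted p = 0.000391). CKX11-like LOC110023168, which breaks cytokinin down, fell by 1.94 ± 0.22 in SD_40d (adjusted p = 4.98e-05).

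Vascular genes gave the tissue context, with 37 of 55 tested. Against the Control, 14 rose and 6 fell in SD_40d (54.1%, against 38.3% of all genes), and 5 rose and 1 fell in LD_20d (16.2%, below the 24% of all genes). Laccase-22-like LOC110030239, of lignin formation, rose from 6.98 to 85.3 CPM in SD_40d, by 3.61 ± 0.40 (edgeR adjusted p = 4.02e-05). SUT1-like LOC110028929, a sucrose carrier of the phloem, rose by 1.91 ± 0.25 in LD_40d (adjusted p = 0.000129) and by 1.92 ± 0.25 in SD_40d (adjusted p = 0.000108). LOC110038014 and LOC110021382, with the same SUT1 match and at lower levels, went the other way in SD_40d. Their differences were -1.59 ± 0.48 (edgeR adjusted p = 0.0201) and -3.86 ± 1.11 (adjusted p = 0.015), the second at 1.05 CPM or less on average in every group. IRX9L-like LOC110020605 also lay below the Control in SD_40d (-1.34 ± 0.21, adjusted p = 0.000454).

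Over all 161 tested genes of these lists, calls were close to or above the background. Against the Control they were 29.8% in LD_20d (24% of all genes) and 42.9% in SD_20d (35.1% of all genes). On day 40 they were 26.7% in LD_40d (27.5% of all genes) and 38.5% in SD_40d (38.3% of all genes). They were 11.8% for LD_40d against LD_20d (5.16% of all genes) and 54% for SD_40d against SD_20d (40.7% of all genes). Between photoperiods 1 gene was called on each day, the gibberellin 2-oxidase LOC110022722. That is 0.621%, against 0.862% of all genes on day 20 and 0.461% on day 40. For LOC110022722 the day-20 call was lost in 3 of 22 alternatives. Its day-40 call was lost in 9, among them the replicate block and the compared groups alone. Its mean on day 20 was 0 CPM under SD and 5.97 under LD.

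Markers of dividing tissue were highest in SD_20d and lowest on day 40. The summed level of 36 cell cycle and histone genes was 913, 914 and 1400 CPM in the Control, lowest to highest. It was 834, 1080 and 1460 CPM in LD_20d, 1360, 1840 and 1960 in SD_20d, 626, 688 and 703 in LD_40d and 430, 437 and 696 in SD_40d, where replicate 1 held the 696. The Control and LD_20d ranges overlapped, and mean WOX4 was 10.9 times higher in LD_20d. The LD_40d sums all lay below the Control. Mean WOX4 was 0.195 CPM in LD_40d and 0.19 in the Control. With 8 and 7 counts of WOX4 in these groups, a fall of the size seen in the sums could not be resolved. Control replicate 2, at 1400 CPM of these markers, held 0.329 CPM of WOX4, the most of the Control in both. Within LD_20d and within SD_20d the libraries ranked alike in both, and SD_40d replicate 1 was the highest of its group in both. Within LD_40d, where WOX4 counts were few, the order was reversed.

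Shoot meristem markers were also highest at 20 days, at 58.6 to 67.2 CPM in LD_20d and 66.1 to 69.9 in SD_20d, against 48.5 to 58.1 in the Control, 46.7 to 51.9 in LD_40d and 53.2 to 54.6 in SD_40d. That list has 10 genes, 4 of them tested and 1 with no count, and WUSCHEL is near 0. Vascular genes summed to 1060 to 1310 CPM in the Control, 1360 to 1470 in LD_20d, 1360 to 1440 in SD_20d, 1290 to 1670 in LD_40d and 1660 to 2440 in SD_40d, where replicate 1 held the 1660. The part of these tissues in the levels of WOX4 and KNOX was not tested. In whole leaves, fewer cells of a type and less RNA per cell cannot be told apart.

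**Figure D5:**
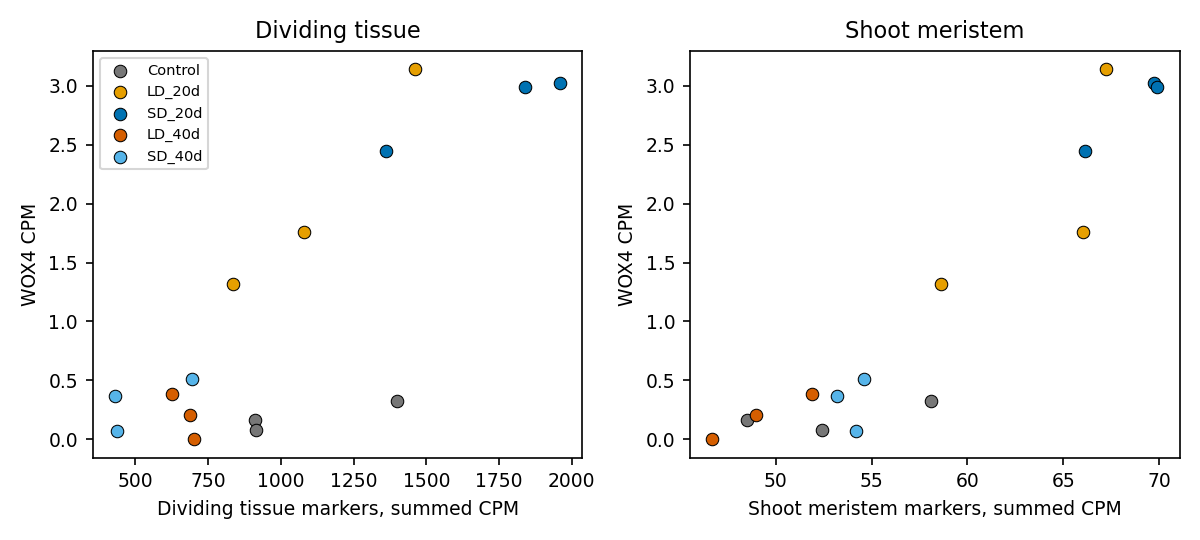
WOX4 level in CPM in each of 15 libraries against the summed CPM of 36 dividing tissue markers (left) and 10 shoot meristem markers (right), coloured by group. The 6 libraries of day 20 lie highest on the WOX4 axis. Control replicate 2 has 1400 CPM of dividing tissue markers with 0.329 CPM of WOX4, the most of the Control in both. Within each 20-day group the libraries rank alike in WOX4 and dividing tissue markers.

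The genes beside each locus are given with their levels. The nearest neighbour of WOX4 on its strand, ALP1-like LOC110026135, ends 548 bases before it and ran from 21.8 CPM in the Control to 39.5 in SD_40d. On the other side, FPP7-like LOC110026127 starts 2024 bases away and ran from 2.49 CPM in LD_40d to 5.27 in SD_20d. The annotated neighbours of KNOX lie 16813 and 29419 bases away and held at most 0.188 and 5.41 CPM.

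Genes most like each member were ranked by the root mean square difference of log2 CPM, each gene centred on its own mean, over 15 libraries and 12722 tested genes with a description. Nearest to WOX4 were a terpene synthase (LOC110031645, 0.47), condensin subunit 2 (LOC110033394, 0.53), a cell wall invertase (LOC110025305, 0.54), an inactive receptor-like kinase (LOC110023758, 0.55) and a calcium-dependent kinase (LOC110028695, 0.58). Nearest to KNOX were ATG11 (LOC110022906), EDR2-like LOC110020192, an FGGY kinase (LOC110032282), CIPK6-like LOC110029153 and SAP4-like LOC110038401, all at 0.14. These names depend on the measure. Ranked over group means, 0 of 5 were shared for WOX4 and 1 for KNOX, and by Pearson correlation 1 and 0.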

How the data were processed

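RNA of young leaves was measured in 15 libraries. Per the file headers, the authors deposited read counts per gene, and FPKM beside them. Gene positions and length are other columns of the deposited table. Per the submitters' processing notes, the tools were HISAT2 2.0.5, cutadapt 1.15, DESeq 1.30.0 and HTSeq 0.9.1. Strand setting, genome build and hour of harvest are not given in the sources used here, so reads of a gene and an antisense partner cannot be told apart.

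Counts were fitted with edgeR 4.0.16 under R 4.3.3 (quasi-likelihood, TMM, filterByExpr with a minimum count of 10 and a minimum total of 15), with one mean per group over 15 libraries. The filter kept 16700 genes, and 1689 had no count. Adjustment was by Benjamini-Hochberg over the genes kept. Fold changes used a prior count of 0.125, and SE is the log2 difference over the root of F. The 8 comparisons are those of the report. FPKM served for levels between genes, and counts rebuilt from FPKM, length and table totals lay within 0.12 reads for WOX4 and KNOX. The fit was tested on simulated data.

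The members and gene lists were chosen with earlier results of these data known. Lists were read from words in the protein names. Of each list, at most 3 called genes with the smallest adjusted p per comparison were named. Besides these, the text names loci said to be chosen after seeing values and loci that share the match of a named gene. Alternatives were DESeq2 1.42.0, limma 3.58.1 (voom), RLE scaling, no filter, a replicate block, the compared groups alone with their own filter, a prior count of 2, and leaving out each library with the genes of the full filter. Replicate numbers were not used to pair samples in the main fit, since in no comparison were all 3 correlations of same-numbered libraries above 0.1. With 3 libraries per group this rule cannot exclude pairing. The correlations for SD_20d against LD_20d were 0.362, 0.246 and 0.0688.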

Additional observations from a re-analysis of the deposited data

How the results depend on the processing

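Of 393 recomputed member differences, 389 moved by less than 1 SD between libraries. With a prior count of 2, WOX4 against the Control was 2.71 in LD_20d and 3.12 in SD_20d on the log2 scale. Leaving out 1 library gave 2.97 to 4 and 3.47 to 4.42. From FPKM and length, without TMM, mean KNOX was 93.3 in the Control and 122 CPM in SD_20d. These lie further apart than the 99.2 and 113 CPM with TMM.

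Calls among related genes moved more. For SD_20d against LD_20d, 1 call became 5 with DESeq2, 3 with the compared groups alone and 0 to 5 without 1 library. For SD_40d against LD_40d, 1 became 12 with DESeq2, 0 with the replicate block, 0 with the compared groups alone and 0 to 32 without 1 library. For LD_40d against LD_20d, 19 became 31 with DESeq2, 12 with voom, 10 with the replicate block, 2 with the compared groups alone and 0 to 40 without 1 library. Against the Control, calls without 1 library ran from 30 to 55 (LD_20d), 45 to 84 (SD_20d), 26 to 61 (LD_40d) and 40 to 78 (SD_40d). The cause was not tested. Of 113 named calls, 76 held in all 22 alternatives and 0 reversed.

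Without 1 library, uncalled differences of LOC110038789 ran from -0.09 to 0.5 (SD_20d against LD_20d) and -1.02 to 0.62 (SD_40d against the Control). Those of LOC110026783 ran from -0.24 to 0.14 (SD_40d against LD_40d) and -0.07 to 0.36 (LD_20d against the Control). The low counts of WOX4 limit its values outside day 20.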
